A study of Mus musculus with 24 samples.

Results

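The genes described here are 10 markers by which astrocytes and their progenitors are recognized, Gfap, S100b, Slc1a3, Aldh1l1, Aqp4, Vim, Nes, Sox9, Fabp7, and Cd44. They and the further gene lists below were chosen by name, with earlier results of these data known. Of the 10, 9 had a row among the 14427 genes in the filtered table of read counts, and Fabp7, which encodes the brain fatty acid binding protein of radial glia, was lacking from it and was not analyzed here. RNA-seq had been performed on 24 libraries from 8 lines of primary mouse astrocytes, with 3 libraries per line. All lines came from the cortices of postnatal day 1 pups on a C57BL/6 background with one floxed and one deleted allele of Trp53, and the cells of at least 3 pups of a sex were combined, so each sex is represented by 1 pooled culture. The male and female p53 KO lines had been made by transduction with a lentivirus carrying Cre and a puromycin resistance gene, which removes the floxed allele. The p53 R172H, p53 Y202C, and p53 Y217C lines of each sex had first been transduced with a retrovirus carrying the mutant Trp53 cDNA and eGFP, sorted for eGFP, and then given the same Cre lentivirus. All were grown in DMEM/F12 with 10% fetal bovine serum and used at passages 10 to 15. Because each genotype is 1 line per sex, the mutation and the history of the line cannot be told apart, and the replicates, which the methods describe as independent thaws and platings, measure the spread within a line.

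A newborn cortex holds astrocytes and progenitors at several stages. Neural progenitors and radial glia carry the intermediate filament proteins nestin and vimentin and the transcription factor SOX9, which is needed for the switch from making neurons to making glia. Maturing astrocytes keep SOX9, lose nestin, and add GFAP, the calcium-binding protein S100B, the folate enzyme ALDH1L1, and the water channel aquaporin 4. The glutamate transporter GLAST (Slc1a3) is carried by radial glia and by astrocytes. CD44 marks astrocyte precursors and reactive astrocytes and is also abundant on fibroblasts.

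Total counts ranged from 52787288 to 136503809 per library, with a median of 80684345, so a gene at 1 CPM was read many times in every library. Levels are given as CPM scaled with TMM factors, as mean ± SD over the 3 libraries of a line, and changes as log2 fold changes from edgeR's quasi-likelihood test with their SE and a Benjamini-Hochberg adjusted p over all 14427 genes, called at 0.05 or less. Trp53, read as a check of which lines are mutant, was at 50.9 ± 2.75 CPM in male and 48.9 ± 2.72 CPM in female p53 KO and at 593 to 3709 CPM in the mutant lines. Its level cannot show the mutation or the sex of a line, and these labels were not checked here. Among male mutant lines Trp53 was lowest in p53 Y217C (1215 CPM), and among female mutant lines it was highest in p53 Y217C (3709 CPM). The 3 libraries of each line differed by more than sampling noise, and none was treated as a repeat of another.

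The markers that define mature astrocytes were near the limit of detection in most of these lines. Gfap was under 1 CPM in 7 of 8 lines, S100b under 0.4 CPM in 6 of 8, and Aqp4 at 2 counts or fewer in every library of 5 lines. Slc1a3 was present in all 24 libraries, as were Vim, Nes, Sox9, and Cd44. Col1a1 and Acta2, a collagen and a smooth muscle gene usually taken as markers of fibroblasts and mural cells, were abundant in every line. Col1a1 was at 3361 to 21776 CPM and Acta2 at 2235 to 3524 CPM. Both were named for being among the most abundant of the 15 such markers listed, which did not all move together. In bulk RNA, fewer cells of a type and less RNA per cell cannot be told apart.

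**Figure D1:**
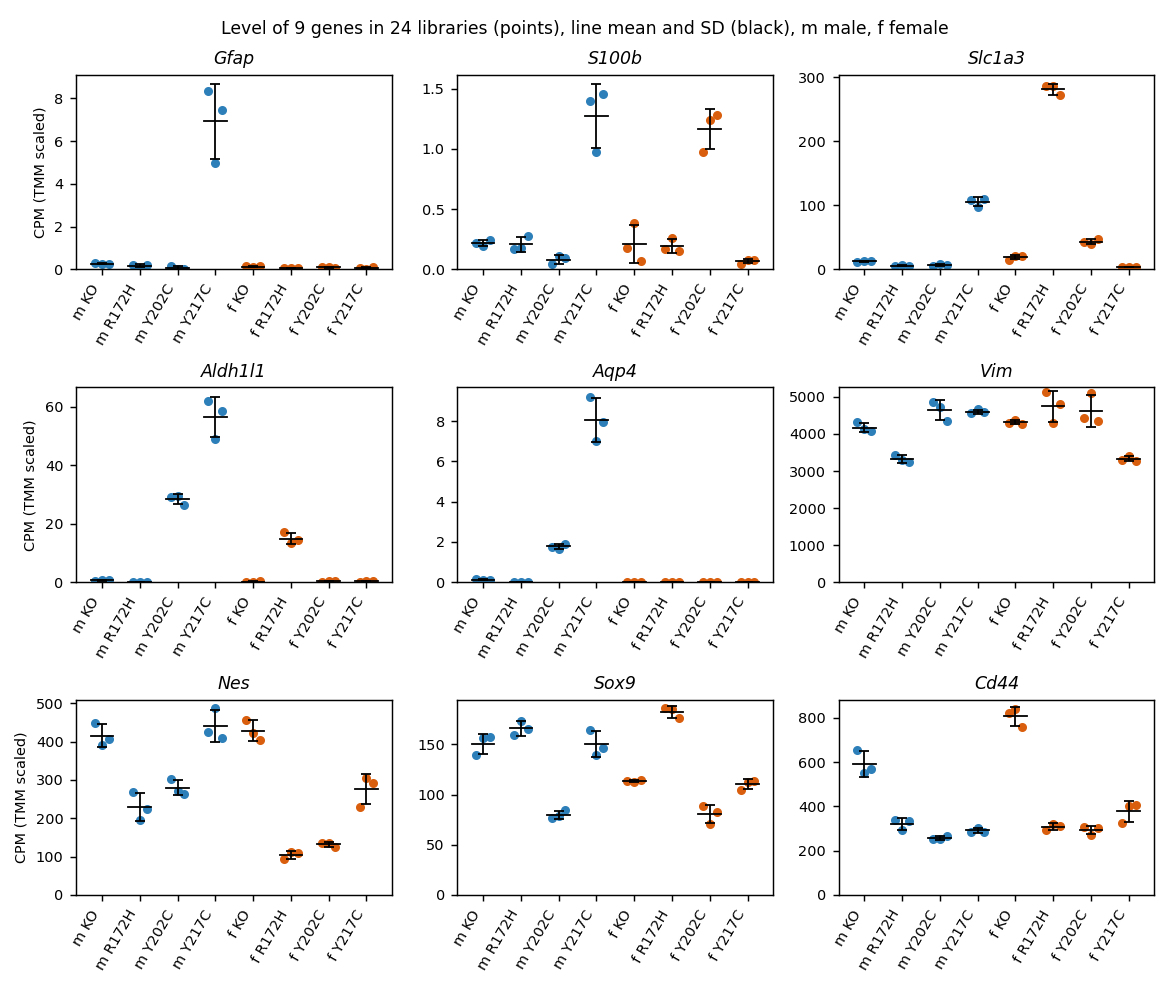
CPM of the 9 analyzed genes in the 24 libraries, each panel on its own linear axis from 0, with male lines (m) in blue and female lines (f) in orange. Points are libraries, and the black bar and whiskers are the line mean and SD (n = 3). Gfap and Aqp4 stood out in male p53 Y217C, Slc1a3 in female p53 R172H, and Cd44 in both p53 KO lines.

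Gfap encodes the intermediate filament protein by which astrocytes are usually identified, and lies at chr11:102887336-102900912 on the minus strand of GRCm38. In male p53 KO the 3 libraries held 24, 30 and 32 Gfap reads, or 0.290, 0.238 and 0.244 CPM, and in female p53 KO 14, 7 and 15 reads, or 0.137, 0.0897 and 0.145 CPM. Male p53 Y217C held 671, 385 and 556 reads, or 8.37, 4.98 and 7.45 CPM. These 3 libraries were far above all other libraries of the series, which did not exceed 0.290 CPM. The change of male p53 Y217C against male p53 KO was 4.76 ± 0.39 (SE), adjusted p = 1.13e-10, or 27.0-fold. Gfap is in the filtered table only through these 3 libraries, so this value describes the size of the change and the p is no separate support. In male p53 Y202C Gfap fell to 15, 2 and 0 reads, most of them in 1 library (log2 fold change -1.86 ± 0.57 (SE), adjusted p = 0.00525). Gfap passed the test in no other mutant line against p53 KO, with fitted changes of -0.66 in male p53 R172H and -1.39, -0.38, and -1.14 in female p53 R172H, p53 Y202C, and p53 Y217C. Some of these passed under other settings, female p53 R172H with DESeq2 (-1.39, adjusted p = 0.0185) and when only the lines compared were fitted (-1.38, adjusted p = 0.0435), and female p53 Y217C with limma (-2.37, adjusted p = 0.0177).

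S100b encodes a small calcium-binding protein of mature astrocytes (chr10:76253853-76261159, plus strand). It was at 0.218, 0.191 and 0.244 CPM in male p53 KO and at 0.177, 0.384 and 0.0676 CPM in female p53 KO. Male p53 Y217C reached 1.397, 0.970 and 1.46 CPM, and female p53 Y202C reached 0.970, 1.24 and 1.28 CPM. Every library of these 2 lines was above every library of the other 6 lines. S100b is in the filtered table through libraries of these 2 lines, so some line had to differ. Against p53 KO of the same sex the log2 fold change was 2.54 ± 0.35 (SE), adjusted p = 8.54e-07 in male p53 Y217C and 2.54 ± 0.37 (SE), adjusted p = 2.08e-06 in female p53 Y202C. S100b fell in male p53 Y202C (-1.50 ± 0.50 (SE), adjusted p = 0.0106) and in female p53 Y217C (-1.60 ± 0.54 (SE), adjusted p = 0.0147). The female fall rested on few reads. Without female p53 KO replicate 2 it was -0.89, adjusted p = 0.169, without female p53 Y217C replicate 1 -1.4, adjusted p = 0.0641, with limma -1.14, adjusted p = 0.0628, and when only the lines compared were fitted its adjusted p was 0.0711. Without male p53 Y202C replicate 1 the fall in male p53 Y202C was -1.11, adjusted p = 0.0803.

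Slc1a3 encodes GLAST, the glutamate transporter of radial glia and young astrocytes (chr15:8634124-8710764, minus strand), and showed the clearest separation of lines among the genes measured in every library. Male p53 KO, at 11.5, 12.2 and 12.9 CPM, was somewhat lower than female p53 KO, at 15.1, 20.2 and 20.9 CPM, without overlap. Female p53 R172H had 287, 285 and 271 CPM, and male p53 Y217C had 109, 97.8 and 110.3 CPM. Female p53 Y217C was lowest, at 3.24, 3.10 and 3.07 CPM. In the order of the 8 line means, from female p53 R172H (281 ± 8.49 CPM) through male p53 Y217C, female p53 Y202C (42.7 ± 3.88 CPM), female p53 KO, male p53 KO, male p53 Y202C (6.69 ± 0.972 CPM), and male p53 R172H (5.68 ± 0.682 CPM) to female p53 Y217C (3.14 ± 0.0908 CPM), only male p53 Y202C and male p53 R172H overlapped as neighbors. Slc1a3 rose 15.0-fold in female p53 R172H (3.91 ± 0.11 (SE), adjusted p = 3.35e-19) and 8.63-fold in male p53 Y217C (3.11 ± 0.11 (SE), adjusted p = 9.04e-18). It also rose in female p53 Y202C (1.19 ± 0.10 (SE), adjusted p = 4.45e-10). It fell in male p53 R172H (-1.11 ± 0.11 (SE), adjusted p = 3.60e-08), in male p53 Y202C (-0.88 ± 0.11 (SE), adjusted p = 1.88e-07), and most in female p53 Y217C (-2.57 ± 0.12 (SE), adjusted p = 2.21e-14).

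Aldh1l1 encodes the cytosolic 10-formyltetrahydrofolate dehydrogenase that marks nearly all astrocytes of the brain (chr6:90486427-90600203, plus strand). It was at 0.508, 0.723 and 0.655 CPM in male p53 KO and at 0.187, 0.154 and 0.270 CPM in female p53 KO. Male p53 Y217C had 62.2, 48.9 and 58.7 CPM, male p53 Y202C 29.2, 29.5 and 26.4 CPM, and female p53 R172H 17.0, 13.2 and 14.4 CPM. These 3 lines did not overlap with each other or with the remaining 5, which stayed under 1 CPM. Aldh1l1 is in the filtered table through these 3 lines, so some line had to differ. Aldh1l1 rose 88.3-fold in male p53 Y217C (6.46 ± 0.17 (SE), adjusted p = 4.07e-20), 44.3-fold in male p53 Y202C (5.47 ± 0.16 (SE), adjusted p = 6.99e-19), and 71.2-fold in female p53 R172H (6.15 ± 0.19 (SE), adjusted p = 2.50e-18). It fell in male p53 R172H to 9, 4 and 2 reads (-3.44 ± 0.35 (SE), adjusted p = 3.97e-08). The changes in female p53 Y202C (0.59, adjusted p = 0.114) and female p53 Y217C (0.17, adjusted p = 0.692) did not pass, though the first did without female p53 KO replicate 3 (0.86, adjusted p = 0.0496) or female p53 Y202C replicate 1 (0.86, adjusted p = 0.0206). Exons of Aldh1l1 overlap those of the noncoding gene Gm45901 on the same strand and of the antisense gene Gm15756. The paper counted only reads that aligned uniquely and without ambiguity. The strand of counting was not given in the sources used here. Whether reads over the shared exons were left out or counted for Aldh1l1 is thus not known.

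The sequence just before the transcription start is shown for the 4 astrocyte genes that varied most between lines and had a printed window, Gfap (chr11:102897201-102897450, minus strand), S100b (chr10:76253586-76253835, plus strand), Slc1a3 (chr15:8710808-8711057, minus strand), and Aldh1l1 (chr6:90550543-90550792, plus strand), and for Cd44 (chr2:102901666-102901915, minus strand), which was lower in all 6 mutant lines. Each is the 250 bases before the start given by RefSeq on GRCm38.p6, read 5′ to 3′ on the strand of the gene, with matches to the motifs searched in capitals.
Gfap: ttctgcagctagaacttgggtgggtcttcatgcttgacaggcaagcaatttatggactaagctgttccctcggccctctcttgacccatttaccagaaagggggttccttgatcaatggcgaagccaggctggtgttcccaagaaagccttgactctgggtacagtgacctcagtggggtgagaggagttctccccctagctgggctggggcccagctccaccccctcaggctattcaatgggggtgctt
S100b: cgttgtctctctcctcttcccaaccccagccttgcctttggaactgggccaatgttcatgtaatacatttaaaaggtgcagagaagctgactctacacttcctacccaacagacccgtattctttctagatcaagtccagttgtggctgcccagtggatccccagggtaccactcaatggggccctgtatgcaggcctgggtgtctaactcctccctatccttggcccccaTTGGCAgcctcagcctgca
Slc1a3: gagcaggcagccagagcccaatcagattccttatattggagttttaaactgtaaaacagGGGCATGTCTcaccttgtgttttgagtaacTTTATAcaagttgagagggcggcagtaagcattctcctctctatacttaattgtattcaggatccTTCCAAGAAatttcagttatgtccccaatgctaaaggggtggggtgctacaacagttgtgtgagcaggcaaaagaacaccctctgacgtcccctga
Aldh1l1: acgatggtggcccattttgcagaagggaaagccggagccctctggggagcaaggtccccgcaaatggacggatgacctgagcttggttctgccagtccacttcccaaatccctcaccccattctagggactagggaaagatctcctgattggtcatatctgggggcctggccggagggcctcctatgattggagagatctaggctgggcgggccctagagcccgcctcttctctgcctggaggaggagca
Cd44: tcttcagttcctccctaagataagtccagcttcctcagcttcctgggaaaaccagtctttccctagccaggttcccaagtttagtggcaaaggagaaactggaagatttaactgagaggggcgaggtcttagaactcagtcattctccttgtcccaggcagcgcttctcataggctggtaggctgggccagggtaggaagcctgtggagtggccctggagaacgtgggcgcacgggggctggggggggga
Windows of 8 of the 10 genes were searched. Sox9 had no window, and that of Aqp4 was left out of the search. The windows of Gfap, S100b, Slc1a3, and Cd44 held no base of an exon in GENCODE M21, and that of Aldh1l1 held 4. The Gfap and Aldh1l1 windows lie inside the gene spans given above, so the sequence before the outermost start of these genes was not searched. The motifs searched on both strands were TATAAA, the SOX motifs ACAAAG and ACAATG, the NFI motif TTGGCA, the STAT motif TTCNNNGAA, the AP-1 motif TGANTCA, and the single decamer unit of the p53 response element. Slc1a3 had the most matches, with a p53 unit whose first base lies 191 bases before the start, TATAAA on the opposite strand at 161 bases, and a STAT motif at 96 bases, and S100b had an NFI motif at 19 bases. Gfap, Aldh1l1, and Cd44 held none of these letters. Over 32851 mouse promoter windows of the same length, 7.13% held a p53 unit, 12.4% TATAAA in either orientation, 7.02% a STAT motif, and 12.3% an NFI motif. The ACAAAG and ACAATG motifs stood in 16.5% and 10.7% of windows and the AP-1 motif in 6.75%. GC content was 44.8% in the Slc1a3 window and 53.6%, 55.6%, 56.4%, and 59.6% in those of S100b, Gfap, Cd44, and Aldh1l1, against a median of 52.4% over all windows. A match describes the sequence and not the binding of a factor.

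Aqp4 encodes the water channel of astrocyte endfeet (chr18:15389496-15410982, minus strand). Male p53 KO held 12, 11 and 14 reads in its 3 libraries, or 0.145, 0.0874 and 0.107 CPM. Male p53 Y217C held 739, 541 and 595 reads (9.22, 6.998 and 7.97 CPM), and male p53 Y202C held 177, 121 and 125 (1.77, 1.64 and 1.91 CPM). No library of male p53 R172H or female p53 KO had a read, and female p53 R172H, p53 Y202C, and p53 Y217C each had 2 reads in 1 library and 0 in the other two. Aqp4 rose in male p53 Y217C (6.18 ± 0.34 (SE), adjusted p = 1.85e-12, 72.4-fold) and in male p53 Y202C (3.99 ± 0.34 (SE), adjusted p = 1.60e-09, 15.9-fold). Aqp4 is in the filtered table through these 2 lines, so some line had to differ. Against a floor of 3 counts per library, male p53 KO was at least 3.21-fold higher than male p53 R172H and at least 3.50-fold higher than female p53 KO. No change could be given for the female mutant lines, since they and female p53 KO were at or under the floor.

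Vim encodes vimentin, the filament protein of progenitors, young astrocytes, and mesenchymal cells (chr2:13573927-13582826, plus strand), and was the most abundant of the 9 genes per kilobase of exon in every line. It was at 4311, 4128 and 4079 CPM in male p53 KO and at 4294, 4384 and 4275 CPM in female p53 KO. The p53 R172H line of the male (3435, 3286 and 3255 CPM) and the p53 Y217C line of the female (3311, 3409.5 and 3280.0 CPM) were lower than every other library. Vim fell in these 2 lines by a small amount (log2 fold change -0.33 ± 0.06 (SE), adjusted p = 2.03e-04 and -0.37 ± 0.06 (SE), adjusted p = 2.19e-05). It rose in male p53 Y202C (0.15 ± 0.06 (SE), adjusted p = 0.0303) and male p53 Y217C (0.14 ± 0.06 (SE), adjusted p = 0.0478), but the rise was lost without any 1 of the 3 male p53 Y217C libraries (adjusted p from 0.0812 to 0.12), without male p53 KO replicate 2 (0.108) or replicate 3 (0.126), and, for male p53 Y202C, when only the lines compared were fitted (0.102), with a filter of 5 CPM (0.12), without male p53 Y202C replicate 1 (0.12) or replicate 2 (0.0827), or without male p53 KO replicate 2 (0.0753) or replicate 3 (0.0894). The values in female p53 R172H (0.14) and female p53 Y202C (0.10) did not pass, but the first passed under 6 of the other settings, with adjusted p from 0.0144 (filter of 5 CPM) to 0.0468 (only the lines compared), and without female p53 R172H replicate 2 (0.00745), and the second with library totals (0.013) and without female p53 Y202C replicate 3 (0.0346). The highest line mean was 4745 CPM and the lowest 3326 CPM, a ratio of 1.43.

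Nes encodes nestin, the filament protein of neural stem and progenitor cells (chr3:87971078-87980451, plus strand). It was at 449, 391 and 407 CPM in male p53 KO and at 458, 423 and 403 CPM in female p53 KO, and these values overlapped. Female p53 R172H had 93.2, 111 and 111 CPM and female p53 Y202C 135, 136 and 125 CPM. Both lay under all libraries of the other lines and did not overlap with each other. Nes fell 4.07-fold in female p53 R172H (-2.03 ± 0.11 (SE), adjusted p = 4.40e-14) and 3.25-fold in female p53 Y202C (-1.70 ± 0.11 (SE), adjusted p = 1.60e-12). Smaller falls were found in male p53 R172H (229.8 ± 36.1 CPM, -0.85 ± 0.10 (SE), adjusted p = 6.96e-07), male p53 Y202C (279.8 ± 20.3 CPM, -0.57 ± 0.10 (SE), adjusted p = 3.29e-05), and female p53 Y217C (276 ± 40.2 CPM, -0.63 ± 0.10 (SE), adjusted p = 1.87e-05). Male p53 Y217C, at 425, 488 and 409.7 CPM, overlapped with male p53 KO and did not pass (0.09, adjusted p = 0.473).

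Sox9 encodes a transcription factor of gliogenesis that is also active in cartilage and other mesenchymal tissue (chr11:112782224-112787760, plus strand). It was at 139, 156 and 157 CPM in male p53 KO and at 113, 112 and 114 CPM in female p53 KO, without overlap. Both p53 Y202C lines were lowest, with 76.9, 78.4 and 84.6 CPM in the male and 88.3, 70.9 and 83.1 CPM in the female, and female p53 R172H was highest, with 186, 185 and 176 CPM. Sox9 fell in p53 Y202C of both sexes (-0.92 ± 0.07 (SE), adjusted p = 2.90e-11 in males and -0.49 ± 0.07 (SE), adjusted p = 1.57e-06 in females) and rose in female p53 R172H (0.69 ± 0.07 (SE), adjusted p = 5.42e-09). The values in p53 Y217C were -0.01 in males and -0.04 in females, and male p53 R172H, at 166 ± 7.27 CPM, did not pass (0.14, adjusted p = 0.113).

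Cd44 encodes the cell surface receptor for hyaluronan, found on astrocyte precursors, reactive astrocytes, and many mesenchymal cells (chr2:102811141-102901665, minus strand). It was at 657, 550.3 and 567 CPM in male p53 KO and at 822, 839.6 and 757 CPM in female p53 KO. The 18 libraries of the mutant lines ranged from 252 to 408 CPM. Every mutant library was thus under every p53 KO library, in both sexes. Cd44 fell in all 6 mutant lines, by 1.84-fold in male p53 R172H (-0.88 ± 0.08 (SE), adjusted p = 6.41e-09), 2.30-fold in male p53 Y202C (-1.20 ± 0.08 (SE), adjusted p = 2.75e-12), and 2.03-fold in male p53 Y217C (-1.02 ± 0.08 (SE), adjusted p = 6.13e-11). In females the falls were 2.61-fold in p53 R172H (-1.39 ± 0.08 (SE), adjusted p = 2.54e-13), 2.75-fold in p53 Y202C (-1.46 ± 0.08 (SE), adjusted p = 1.70e-13), and 2.13-fold in p53 Y217C (-1.09 ± 0.08 (SE), adjusted p = 6.56e-11). The 3 comparisons of a sex share the same p53 KO libraries. The mutant lines, unlike p53 KO, had also been given the retrovirus and sorted for eGFP, and this cannot be told apart from the mutant protein.

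**Figure D2:**
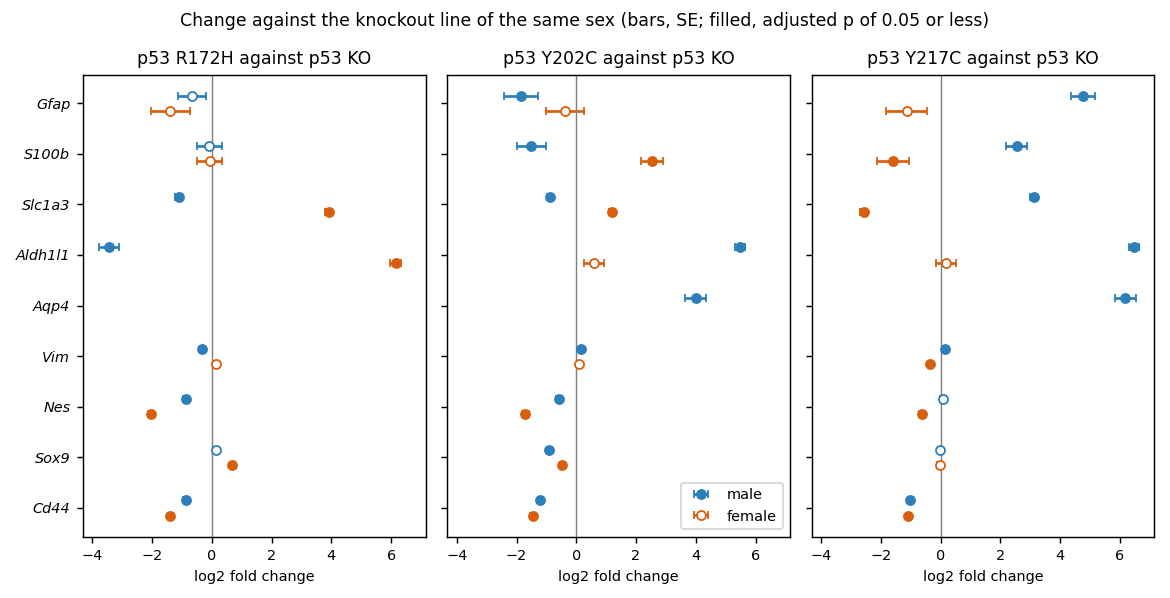
Log2 fold change of each gene in the mutant lines against the p53 KO line of the same sex, with 1 panel per mutation. Points are the fitted changes in males (blue) and females (orange), bars are SE, and filled points passed an adjusted p of 0.05. Aqp4 is drawn only where neither line was at the floor of 3 counts. Cd44 lies left of 0 in all 6 lines, while Slc1a3 and Aldh1l1 lie on opposite sides in male and female p53 R172H.

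The 9 genes can also be read line by line. Gfap, S100b, Aldh1l1, and Aqp4 were in the filtered table through the few lines in which they exceeded 1 CPM, so some line had to differ for them, and counts are given here for the 5 genes above 1 CPM in every library, Slc1a3, Vim, Nes, Sox9, and Cd44. In male p53 R172H, 4 of the 5 fell and none rose, where 20.5% of all genes tested fell and 20.2% rose. In male p53 Y202C, 4 fell and 1, Vim, rose, against 35.4% and 37.6% of all genes. In male p53 Y217C, 2 rose and 1 fell, against 34.9% and 35.6%. The female lines differed in a similar range: p53 R172H had 2 that rose and 2 that fell (34.4% and 35.3% of all genes), p53 Y202C had 1 and 3 (34.3% and 34.3%), and p53 Y217C had 0 and 4 (28.0% and 28.7%). With most genes called in 5 of the 6 comparisons, a call by itself is common in these data.

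The pattern across the 9 genes differed between lines. Male p53 Y217C had the highest mean of Gfap, S100b, Aldh1l1, and Aqp4 and kept Nes at the level of p53 KO. Male p53 Y202C raised Aldh1l1 and Aqp4 but not Gfap, S100b, or Slc1a3, which fell. Female p53 R172H raised Slc1a3, Aldh1l1, and Sox9, with Gfap at 4, 6 and 5 reads and Aqp4 at the floor, and had the lowest Nes. Male p53 R172H and female p53 Y217C raised none of the 9 genes.

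Levels of different genes were compared per kilobase of exon. In male p53 KO the order was Vim (879.8 CPM per kilobase), Cd44 (87.3), Nes (64.8), Sox9 (36.5), and Slc1a3 (1.43), followed by S100b (0.146), Aldh1l1 (0.139), Gfap (0.0610), and Aqp4 (0.0181). Even in male p53 Y217C, where it was highest, Gfap was at 1.64 CPM per kilobase, beside 12.5 for Aldh1l1, 12.4 for Slc1a3, and 970.4 for Vim. In female p53 R172H, Slc1a3 reached 32.9 CPM per kilobase, above Nes at 16.4 and under Sox9 at 44.1.

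**Figure D3:**
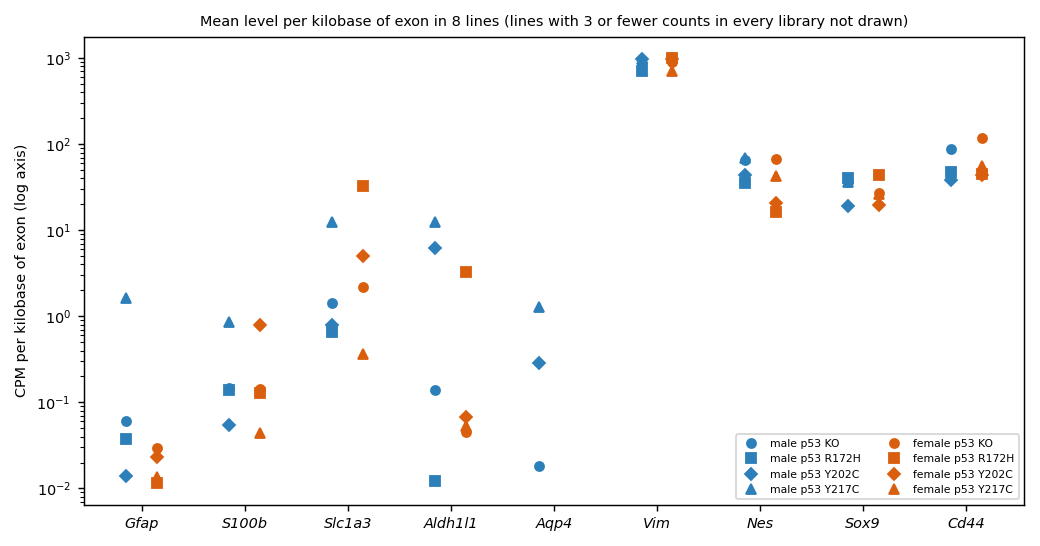
Mean level per kilobase of exon of the 9 genes in the 8 lines, on a log axis, with males in blue and females in orange and 1 symbol per genotype. Lines in which a gene had 3 or fewer counts in every library are not drawn. Vim is highest in every line, Nes, Sox9, and Cd44 lie between 16.4 and 119 CPM per kilobase, and the 5 astrocyte genes spread most between lines.

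Whether a mutation changed these genes differently in males and females was tested as the interaction of sex and mutation, the male log2 change minus the female one. Each sex is 1 culture, so this compares 2 cultures and not the sexes at large. Of the 5 genes above 1 CPM in every library, 5 differed for p53 R172H, 4 in the Y202C comparison, and 3 in the Y217C comparison, where 58.0%, 68.0%, and 54.8% of all genes did. For p53 R172H, Slc1a3 fell in males and rose in females, with a difference of -5.02 ± 0.16 (SE), adjusted p = 3.23e-18. Aldh1l1 did so too (-9.59 ± 0.37 (SE), adjusted p = 2.40e-16). For p53 Y217C the order was opposite: Slc1a3 rose in males and fell in females (5.68 ± 0.16 (SE), adjusted p = 8.34e-19). Gfap (5.90 ± 0.77 (SE), adjusted p = 5.32e-07), S100b (4.15 ± 0.64 (SE), adjusted p = 5.95e-06), and Aldh1l1 (6.29 ± 0.42 (SE), adjusted p = 5.90e-12) also differed, rising in males, while in females S100b fell and Gfap and Aldh1l1 did not pass. Because Gfap, S100b, and Aldh1l1 are in the table through the lines where they are high, their p-values here and below are no separate support. For p53 Y202C, Aldh1l1 rose in males and did not pass in females (4.88 ± 0.40 (SE), adjusted p = 1.41e-10) while S100b and Slc1a3 fell in males and rose in females (-4.03 ± 0.62 (SE), adjusted p = 3.71e-06 and -2.07 ± 0.15 (SE), adjusted p = 1.80e-11). Nes fell less, or not at all, in the male line of each mutation, with differences of 1.17 ± 0.15, 1.13 ± 0.15, and 0.72 ± 0.15 (SE) in the order R172H, Y202C, Y217C (adjusted p = 3.56e-07, 3.57e-07, and 2.24e-04). The fall of Cd44 differed by 0.51 ± 0.11 (SE), adjusted p = 4.79e-04 for p53 R172H, was not distinguishable between the sexes for p53 Y217C (0.07 ± 0.11 (SE), adjusted p = 0.612), and for p53 Y202C (0.26 ± 0.11 (SE), adjusted p = 0.0472) was lost without any 1 of 9 of the 12 libraries compared (adjusted p from 0.0528 to 0.128).

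The 2 p53 KO lines also differed. In males, Aldh1l1 was 3.07-fold higher than in females (1.62 ± 0.26 (SE), adjusted p = 3.03e-05) and Sox9 1.33-fold higher (0.41 ± 0.07 (SE), adjusted p = 5.74e-05). Slc1a3 (-0.61 ± 0.10 (SE), adjusted p = 6.76e-05) and Cd44 (-0.45 ± 0.08 (SE), adjusted p = 1.16e-04) were lower in males. Vim, Nes, Gfap, and S100b did not pass, with log2 differences of -0.05, -0.04, 1.01, and 0.12. Of the 5 genes above 1 CPM in every library, 3 differed between the p53 KO lines, against 31.1% of all genes. The count was 3 for p53 R172H (62.0% of all genes), 3 for p53 Y202C (75.3%, with Cd44 no longer called without any 1 of 4 of the 6 libraries, adjusted p from 0.0542 to 0.112), and 5 for p53 Y217C (68.0%). Aldh1l1 differed between the male and female lines by -7.98 ± 0.24 (SE), adjusted p = 9.80e-19 for p53 R172H, lower in the male, and by 7.91 ± 0.20 (SE), adjusted p = 9.63e-21 for p53 Y217C, higher in the male. Slc1a3 differed by -5.63 ± 0.12 (SE), adjusted p = 2.68e-21 for p53 R172H, lower in the male.

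A list of 30 other astrocyte genes, 25 of them in the table, is described by the 18 above 1 CPM in every library, with the number that passed and the median log2 fold change, which was within 0.01 of 0 over all genes in each comparison. Of all genes, 34.9% rose and 35.6% fell in male p53 Y217C, and the shares for the other lines are those given above. In male p53 Y217C, 12 rose and 4 fell (median 0.54), in female p53 R172H 11 rose and 5 fell (median 0.43), and in female p53 Y202C 10 rose and 6 fell (median 0.38). In male p53 R172H 2 rose and 11 fell (median -0.37), in male p53 Y202C 5 rose and 9 fell (median -0.34), and in female p53 Y217C 2 rose and 10 fell (median -0.29). Sparcl1 and Mlc1, which are in the table through the lines where they are high and in none of these counts, were like Gfap highest in male p53 Y217C. Sparcl1, a secreted synapse-forming protein of astrocytes, was at 53.3 ± 9.88 CPM there and at 0.225 CPM or less in every other line. Mlc1, a membrane protein of astrocyte endfeet, was at 53.6 ± 7.98 CPM, at 2.41 ± 0.494 CPM in male p53 Y202C, and under 0.4 CPM elsewhere. Mt3, the brain metallothionein, was at 114 ± 9.86 CPM against 1.96 ± 0.236 CPM in male p53 KO (5.87 ± 0.36 (SE), adjusted p = 5.09e-13). Clu, which encodes the secreted chaperone clusterin, rose in male p53 Y217C (4.09 ± 0.16 (SE), adjusted p = 8.50e-17) and in female p53 R172H, where it reached 228 ± 32.6 CPM (5.26 ± 0.17 (SE), adjusted p = 4.80e-18). Nfib, an NFI transcription factor of gliogenesis, rose in male p53 Y217C (1.51 ± 0.12 (SE), adjusted p = 3.17e-11) and female p53 Y202C (2.52 ± 0.12 (SE), adjusted p = 8.07e-15). Thbs1, thrombospondin 1, was among the most abundant of the list and fell in all 6 mutant lines, from -0.22 in male p53 R172H to -2.94 in male p53 Y202C. Summed over the 25 genes, where the most abundant weigh most, the mean level was 12412 CPM in male p53 KO. It was 10948, 4843, and 11384 CPM in male p53 R172H, p53 Y202C, and p53 Y217C. In females it was 15076 CPM in p53 KO and 8947, 8176, and 11697 CPM in the same order. The sum was thus lower in all 6 mutant lines, also where the median was above 0.

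Of 24 other genes of neural progenitors, 20 were in the table and 14 were above 1 CPM in every library. Of these, in male p53 Y202C 8 rose and 4 fell (median 0.30) and in male p53 Y217C 9 rose and 2 fell (median 0.43). In the other 4 lines more fell than rose, 7 against 1 in male p53 R172H (median -0.22), 8 against 2 in female p53 R172H (-0.22), 7 against 2 in female p53 Y202C (-0.24), and 7 against 2 in female p53 Y217C (-0.17). The shares of all genes that rose and fell in each line are those given above. Sox2, a transcription factor of neural stem cells, was at 24.5 ± 1.86 CPM in male p53 KO, at 149.8 ± 4.02 CPM in male p53 Y202C, and at 193 ± 5.89 CPM in male p53 Y217C, but at 1.86 ± 0.169 CPM in male p53 R172H. In the female lines it was at 1.59 ± 0.0454 CPM in p53 KO, 0.937 ± 0.0862 CPM in p53 R172H, and at or under the floor in p53 Y202C and p53 Y217C. Lhx2, a transcription factor of cortical progenitors, had a like pattern, with 105 ± 5.18 CPM in male p53 Y202C, 25.7 ± 0.481 CPM in male p53 Y217C, 3.34 ± 0.231 CPM in male p53 KO, and under 1 CPM elsewhere. Ptprz1, a receptor phosphatase of radial glia, went the other way in males. It rose in male p53 R172H (2.70 ± 0.10 (SE), adjusted p = 4.47e-16) and fell to under 1 CPM in male p53 Y202C (-5.70 ± 0.16 (SE), adjusted p = 2.02e-19) and male p53 Y217C (-4.39 ± 0.14 (SE), adjusted p = 1.15e-18). Sox2, Lhx2, and Ptprz1 were under 1 CPM in some lines, so they are in none of the counts above. They are in the table through the lines where they are high, and the p-values of Ptprz1 are no separate support. Zbtb20, a transcription factor of astrocyte differentiation, rose in male p53 Y202C (1.54 ± 0.16 (SE), adjusted p = 9.28e-09) and male p53 Y217C (1.97 ± 0.17 (SE), adjusted p = 1.83e-10).

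**Figure D4:**
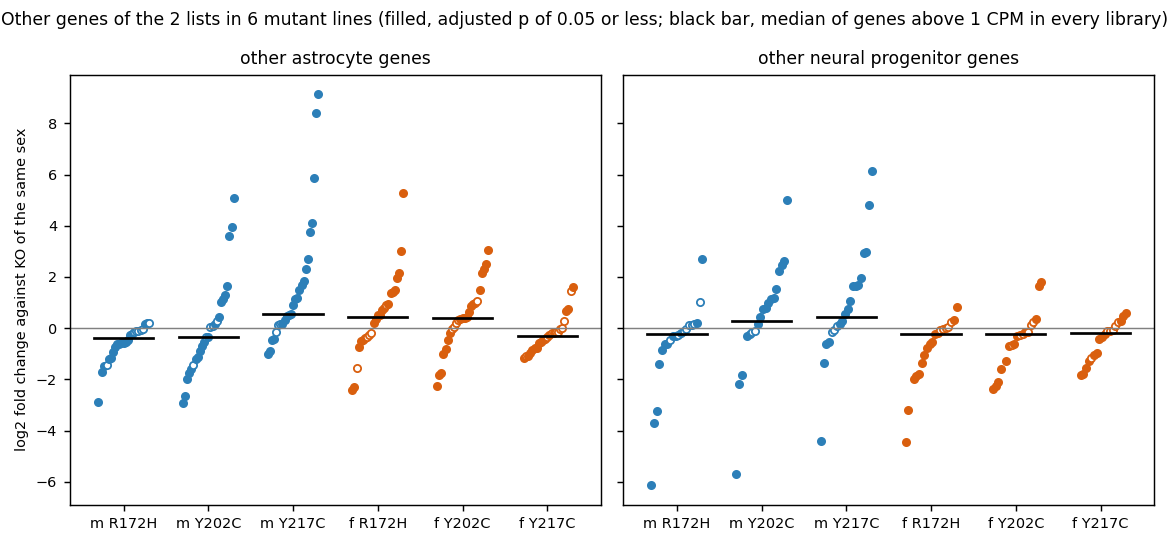
Log2 fold change against p53 KO of the same sex for other astrocyte genes (left) and other neural progenitor genes (right) in the 6 mutant lines. Each point is 1 gene, filled where it passed an adjusted p of 0.05, genes with a line at the floor are not drawn, and the black bar is the median of the genes above 1 CPM in every library. The median of the astrocyte genes is highest in male p53 Y217C (0.54) and that of the progenitor genes lies above 0 in male p53 Y202C and male p53 Y217C only.

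Genes that share a function with the markers were read beside them, those above 1 CPM in every library with the numbers that rose and fell given in the order male p53 R172H, p53 Y202C, and p53 Y217C, then female p53 R172H, p53 Y202C, and p53 Y217C. Of all genes, 20.2% and 20.5%, 37.6% and 35.4%, 34.9% and 35.6% rose and fell in the male lines. In the female lines these shares were 34.4% and 35.3%, 34.3% and 34.3%, 28.0% and 28.7%. A count near these shares, here and for the lists that follow, says nothing particular about its list. Any gene named here or below that was under 1 CPM in some library is in the table through the lines where it is high. Its p-value is then no separate support. Of 7 such genes for the anchoring of aquaporin 4 and for other water and potassium channels, 3 and 0, 4 and 2, 5 and 0, 4 and 2, 3 and 3, 3 and 2 rose and fell. Kcnj10, the inward rectifier potassium channel that sits beside aquaporin 4 in endfeet, was at 4.23 ± 0.847 CPM in male p53 Y217C and under 0.2 CPM in the other lines. Kcnj10 is not among the 7 and is in the table only through male p53 Y217C, so some line had to differ. Aqp1, another water channel, was at 620.2 ± 60.4 CPM in female p53 R172H against 13 ± 0.797 CPM in female p53 KO (5.58 ± 0.13 (SE), adjusted p = 5.24e-21), and Aqp5 rose there as well (7.27 ± 0.26 (SE), adjusted p = 2.48e-17), while Aqp4 was at the floor. Dag1, which encodes the dystroglycan that anchors aquaporin 4, stayed between 283 and 428 CPM.

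Of 6 such genes of glutamate transport, 3 and 2, 3 and 2, 2 and 3, 2 and 2, 1 and 4, 1 and 3 rose and fell in the same order of lines. Slc1a2, the glutamate transporter GLT-1 of mature astrocytes, was at 7.82 ± 0.624 CPM in male p53 Y217C and rose there (3.76 ± 0.22 (SE), adjusted p = 1.22e-13), in male p53 Y202C (1.64 ± 0.21 (SE), adjusted p = 2.50e-07), and in female p53 Y202C (2.31 ± 0.24 (SE), adjusted p = 7.34e-09). Slc1a2 is not among the 6 and is in the table through lines where it is high, so these p-values are no separate support. In female p53 R172H, where Slc1a3 was highest, Slc1a2 was at 0.235 ± 0.0631 CPM and did not pass (-0.36, adjusted p = 0.236). Glul, the glutamine synthetase of astrocytes, was between 25.4 and 65.8 CPM in all lines. Of 10 folate enzymes, 5 and 1, 5 and 4, 3 and 5, 2 and 7, 1 and 8, 3 and 3 rose and fell. Aldh1l2, the mitochondrial relative of Aldh1l1, rose in male p53 Y202C (1.76 ± 0.06 (SE), adjusted p = 2.59e-17), where Aldh1l1 rose too, but fell slightly in male p53 Y217C (-0.19 ± 0.06 (SE), adjusted p = 0.00871), where Aldh1l1 was highest. Of 7 S100 genes, 2 and 1, 4 and 2, 2 and 4, 3 and 2, 5 and 0, 4 and 2 rose and fell. S100a4, a marker of fibroblasts, was at 227 ± 18.2 CPM in female p53 R172H and 195 ± 20.1 CPM in male p53 Y202C, and S100a6 was abundant in every line, at 723 to 1277 CPM.

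The SOX family, with 8 genes in the table beside Sox9 and 4 of them above 1 CPM in every library, had 0 and 0, 0 and 2, 0 and 3, 0 and 4, 0 and 3, 1 and 2 that rose and fell. Sox6 and Sox8, which act in glial development, were highest in male p53 Y217C, at 71.7 ± 4.61 CPM and 48.3 ± 1.47 CPM, against 5.39 ± 0.794 CPM and 3.01 ± 0.0736 CPM in male p53 KO. Sox4, the most abundant of the 8 on average, fell in all 3 female mutant lines, from -0.96 in p53 Y217C to -1.58 in p53 Y202C, and did not pass in the male lines. Among 5 partners of the intermediate filaments, 1 and 1, 1 and 3, 1 and 4, 1 and 4, 0 and 3, 0 and 4 rose and fell. Plec, the linker protein plectin, fell in male p53 Y217C (-1.12 ± 0.09 (SE), adjusted p = 1.74e-10). Of 13 genes around CD44 and hyaluronan, 4 and 3, 4 and 7, 4 and 8, 3 and 6, 5 and 6, 3 and 7 rose and fell. Has2, a hyaluronan synthase, fell in all 3 male mutant lines, most in p53 Y202C (-2.76 ± 0.12 (SE), adjusted p = 6.18e-16), and Spp1, the CD44 ligand osteopontin, rose in all 6 mutant lines, from 0.24 in male p53 R172H to 1.91 in female p53 R172H. Of the 3 fatty acid binding protein genes in the table, Fabp5 alone was above 1 CPM in every library. Fabp5, the member of that family shared by progenitors and other tissues, was at 86.4 ± 8.05 CPM in male p53 KO and fell in male p53 Y202C (-2.17 ± 0.15 (SE), adjusted p = 4.07e-12) and male p53 Y217C (-1.37 ± 0.14 (SE), adjusted p = 1.01e-08).

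The genes whose line means were most like those of each marker were found among 9394 other genes with a mean of at least 10 CPM, by Pearson's r of log2 CPM over the 8 lines. With 8 points that share libraries in threes, some of so many genes must lie close, and the values are a description. They were Atp6v0a2 (r = 0.977) and Med14 (r = 0.968) for Gfap, Igf1 (r = 0.984) and Pigs (r = 0.976) for S100b, Mydgf (r = 0.988) and Ppox (r = 0.976) for Slc1a3, and Slc48a1 (r = 0.972) and Nucb2 (r = 0.966) for Aldh1l1. For Aqp4 they were Zbtb20 (r = 0.987) and Notch1 (r = 0.983), both of which are on the list of progenitor genes. They were Socs5 (r = 0.955) and Dennd1b (r = 0.951) for Vim, Cdh2 (r = 0.985) and Nsd2 (r = 0.96) for Nes, Rftn2 (r = 0.948) and Ppib (r = 0.942) for Sox9, and Naa16 (r = 0.987) and Psma7 (r = 0.968) for Cd44. Cdh2 encodes N-cadherin, also on the progenitor list. Among the 9 markers themselves, r over the 8 lines was highest between Aldh1l1 and Aqp4 (0.8), Slc1a3 and Vim (0.73), and Gfap and S100b (0.7), and lowest between Aldh1l1 and Cd44 (-0.48).

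Markers of other cell types moved with some of these results. All 15 markers of fibroblasts, mural cells, and meninges were in the table, and their summed level was 44222 to 50621 CPM in the libraries of male p53 KO and 39135 to 41540.0 CPM in those of female p53 KO. In this sum the most abundant genes weigh most, and the counts given with it are of all 15, whatever their level. It was 20884 to 23524 CPM in male p53 Y202C and 29538 to 30948 CPM in male p53 Y217C, where 10 and 9 of the 15 fell and 2 and 3 rose. Of all genes, 35.4% and 35.6% fell and 37.6% and 34.9% rose in these lines. The sum was 59949 to 69028 CPM in female p53 R172H, where 12 rose and 3 fell, 53170.5 to 59492 CPM in female p53 Y202C (10 rose, 4 fell), 48896 to 52659.6 CPM in male p53 R172H (3 and 4), and 36529.5 to 38191 CPM in female p53 Y217C (6 and 5). Of all genes, 34.4% and 35.3%, 34.3% and 34.3%, 20.2% and 20.5%, and 28.0% and 28.7% rose and fell in the same order. Aldh1l1 and Aqp4 were thus high in the 2 lines where these markers summed lowest, while Slc1a3 and Aldh1l1 were also high in female p53 R172H, where they summed highest. The 15 markers did not move together. As the male log2 change minus the female one for p53 R172H, Lum was at -8.16 and Dcn at -5.49. Des was at 3.47 and Tagln at 0.77. The part of fibroblasts, mural cells, and meninges in the changes of the astrocyte genes was not tested.

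Other lists were low. Of 13 oligodendrocyte lineage markers 5 were analyzed, summing to 89.3 to 423 CPM over the libraries, and Olig1, Olig2, Sox10, Mog, and Mag were among the 8 lacking. Their sum was lowest in male p53 Y217C (89.3 to 95.9 CPM), and Pdgfra, which marks oligodendrocyte precursors and also fibroblasts, was at 165 ± 14.1 CPM in female p53 R172H and 144 ± 10.3 CPM in female p53 Y202C. Neuron markers (7 of 12 analyzed, without Rbfox3 and Dcx) summed to 103 to 188 CPM, endothelial markers (5 of 10, without Pecam1) to 37.0 to 263 CPM, microglia markers (3 of 12, without Aif1 and Ptprc) to 26.5 to 116 CPM, and epithelial and choroid plexus markers (3 of 8, without Epcam and Ttr) to 17.1 to 128 CPM. The numbers that rose and fell among all markers analyzed, those low in some lines included, were, in the order of lines above, 2 and 2, 0 and 4, 2 and 3, 3 and 1, 4 and 1, 3 and 1 for oligodendrocyte lineage markers, 3 and 2, 3 and 4, 1 and 5, 2 and 4, 3 and 4, 1 and 4 for neuron markers, 0 and 0, 1 and 2, 2 and 1, 2 and 1, 2 and 0, 1 and 0 for microglia markers, 0 and 3, 0 and 4, 0 and 5, 1 and 3, 1 and 4, 0 and 5 for endothelial markers, and 0 and 1, 2 and 1, 2 and 1, 2 and 1, 2 and 1, 0 and 0 for epithelial and choroid plexus markers. All 5 endothelial markers fell in male p53 Y217C and in female p53 Y217C, where 35.6% and 28.7% of all genes fell. In the order of lines above, 20.2% and 20.5%, 37.6% and 35.4%, 34.9% and 35.6% of all genes rose and fell in males. In females the shares were 34.4% and 35.3%, 34.3% and 34.3%, 28.0% and 28.7%.

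**Figure D5:**
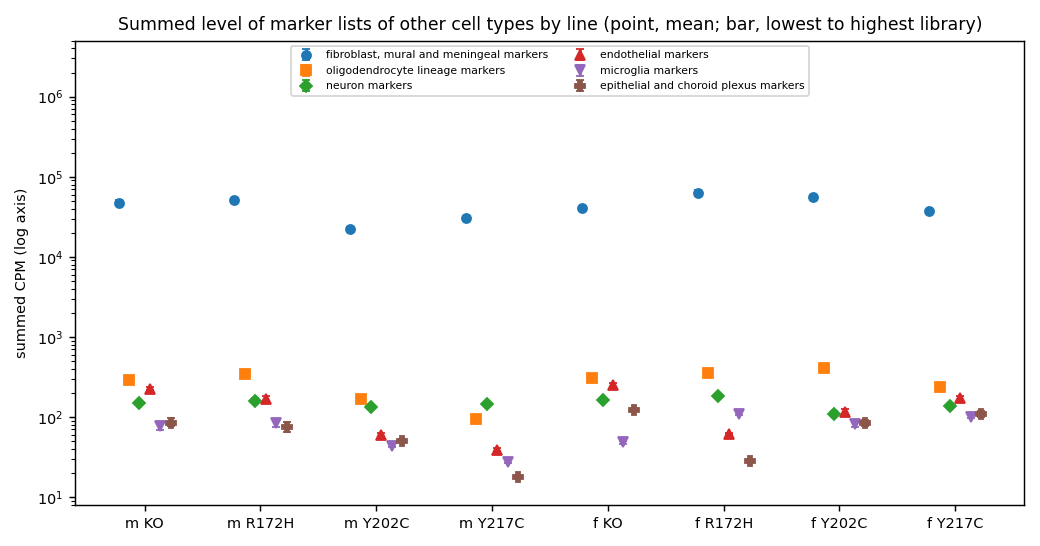
Summed CPM of marker genes of other cell types in each line on a log axis, as the mean of 3 libraries with the lowest and highest library as bar. The fibroblast, mural, and meningeal markers sum to at least 20884 CPM in every library, and each of the other 5 lists to no more than 423 CPM.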

How the data were processed

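Read counts per gene were taken from RNA-seq of 24 libraries, grouped into 8 lines by the sample labels. The authors aligned the reads with STAR (2.5.1a in the submitters' processing notes) and counted reads per gene with featureCounts from Subread. The deposited values are raw counts without normalization, each gene being above 1 CPM in at least 3 libraries. The strand of counting was not given in the sources used here. Identifiers were matched to GENCODE M21 on GRCm38, which named 14344 of 14427.

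The quasi-likelihood test of edgeR 4.0.16 (R 4.3.3) was fitted to all libraries, with a mean for each line, TMM factors of 0.958 to 1.07, a filter of 1 CPM in at least 2 libraries, which removed 0 genes, and Benjamini-Hochberg adjustment at 0.05. Correlations used log2 CPM with a prior count of 2. Tables and figures were made in Python 3.11.15. The model was tested on simulated data. Alternatives were DESeq2 1.42.0, its size factors, limma 3.58.1 with voomWithQualityWeights, library totals, other filters and thresholds, fitting only the lines compared, a replicate block, and leaving out each library in turn. Depth, 52787288 to 136503809 counts, sets the floor of 3 counts per library. The floor covers counting error only.

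The markers and the 16 further gene lists were chosen with earlier results of these data known. Named genes were the markers, Trp53, the 2 genes most like each marker, and from each list up to 4 with the largest change against p53 KO and up to 4 with the highest level. Not every gene so covered is reported. Promoter windows came from RefSeq, and coordinates are 1-based.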

Additional observations from a re-analysis of the deposited data

Results flagged for a closer look

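For the marker genes and mutations given here, the change against p53 KO differed between the male and the female lines by the interaction in edgeR at a Benjamini-Hochberg adjusted p of 0.05 or less, leaving aside Aqp4, for which a line was at the floor, and so it did for 58.0%, 68.0%, and 54.8% of all genes in the order p53 R172H, Y202C, Y217C. Gfap, S100b, and Aldh1l1 are in the table through the lines where they are high. As the male log2 change minus the female one, the differences for p53 R172H were -9.59 for Aldh1l1, -5.02 for Slc1a3, -0.55 for Sox9, -0.46 for Vim, 0.51 for Cd44, and 1.17 for Nes. For p53 Y202C they were -4.03 for S100b, -2.07 for Slc1a3, -0.43 for Sox9, 0.26 for Cd44, 1.13 for Nes, and 4.88 for Aldh1l1. For p53 Y217C they were 6.29 for Aldh1l1, 5.90 for Gfap, 5.68 for Slc1a3, 4.15 for S100b, 0.72 for Nes, and 0.51 for Vim. Slc1a3 is the one gene whose difference was called for all 3 mutations with a line of each sex moving in opposite directions. Sex and culture cannot be told apart, and groups of 3 libraries were not searched for outliers.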

How the results depend on the processing

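Of 2106 values recomputed under an alternative, 1991 kept their direction and their side of the threshold or stayed within the spread. The alternative without a filter on low counts repeated the main fit, since the filter removed 0 genes, so its agreement is no support. With an absolute log2 fold change above 0.5 also required, markers called between male and female p53 KO went from 5 (3 of the genes above 1 CPM in every library, with Aldh1l1 and Aqp4) to 3 (Slc1a3, Aldh1l1, and Aqp4), where 31.1% of all genes went to 12%, and other neural progenitor genes called in female p53 Y217C from 14 to 9 of the 20 in the table (28.7% lower and 28.0% higher of all genes against 25.3% in both directions). The signs that turned belonged to changes that did not pass. For S100b these were female p53 R172H under limma (0.18) and, for the replicate block, the interaction for p53 R172H (0.01). For Vim in p53 Y202C the interaction was -0.02 with library totals and -0.01 with the filter of 5 CPM, and male against female -0.03 and -0.05. Sox9 in male p53 Y217C was 0 with DESeq2 and with its size factors, 0.1 with library totals, 0.03 with the filter of 5 CPM, and 0.02 when only the lines compared were fitted. Sox9 in female p53 Y217C was 0.04 with library totals, and its interaction for p53 Y217C was -0.01 under limma. Library totals moved the median of all genes by 0.1 in male p53 Y217C.

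Leaving out each library gave -0.34 to 0.08 for S100b in male p53 R172H, -0.52 to 0.64 in female p53 R172H, -0.72 to 0.44 for its interaction for p53 R172H, -0.33 to 0.83 between the p53 KO lines, and -0.15 to 0.36 between the p53 R172H lines. It gave -0.03 to 0.13 and -0.07 to 0.09 for the interaction and the male against female difference of Vim in p53 Y202C, 0 to 0.14 for Nes in male p53 Y217C, and -0.1 to 0.01 for Nes between the p53 KO lines. For Sox9 it gave -0.08 to 0.04 in male p53 Y217C, -0.04 to 0.08 for the interaction for p53 Y217C, and -0.1 to 0.05 between the p53 Y202C lines, and for Cd44 -0.03 to 0.16 for the interaction for p53 Y217C.

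Libraries with the same replicate number in 2 lines did not deviate together (mean r -0.0116 in 84 pairs, and 0.00571 in the 168 pairs of other numbers), so the numbers were not taken as pairs. With the replicate block, the call of Cd44 in the interaction for p53 Y202C was lost (0.26, adjusted p = 0.0593), as it was with DESeq2 size factors (0.25, adjusted p = 0.0508), library totals (0.18, adjusted p = 0.149), and the filter of 5 CPM (0.19, adjusted p = 0.129). The call of Sox9 between the p53 R172H lines was gained with DESeq2, its size factors, the filter of 5 CPM, and only the lines compared (-0.17 to -0.16, adjusted p from 0.0206 to 0.0481), Gfap between the p53 KO lines with only the lines compared (1.01, adjusted p = 0.0463), and the interaction of Vim for p53 Y202C with limma (0.15, adjusted p = 0.0403). Depth limits Gfap, S100b, and Aqp4, which had few or no reads in most lines. The cause of these changes was not tested.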
